A study of Mus musculus with 18 samples.

Results

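The genes described here encode 9 proteins of the tricarboxylic acid (TCA) cycle: Cs, Idh3a, Idh2, Ogdh, Dlst, Dld, Sucla2, Fh1 and Mdh2. They were taken by name, by the Ensembl identifier of each symbol among the 55401 lines of the endothelial table and by symbol among the 22612 lines of the EO771 table, and all 9 passed the filter on low values in both tables. The list was chosen by pathway with fitted changes of these libraries already in view, among them the lower Ogdh of HEC tumour against BEC tumour. Which other values led to it is not recorded. The changes of the 9 genes are therefore descriptions, given with whether they passed the fit across all genes (adjusted p under 0.05), and nothing is supported by them.

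The TCA cycle runs in the mitochondrial matrix. Citrate synthase (Cs) joins acetyl-CoA to oxaloacetate, and isocitrate and 2-oxoglutarate are then oxidised with release of carbon dioxide. Succinyl-CoA ligase, succinate dehydrogenase, fumarase (Fh1) and malate dehydrogenase (Mdh2) return the carbon to oxaloacetate, and the reduced cofactors feed the respiratory chain. Endothelial cells are known to draw much of their ATP from glycolysis, and use the cycle largely as a source of precursors.

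RNA was sequenced in 18 mouse libraries, 3 in each of 6 groups. The 12 endothelial libraries came from sorted CD45-CD31high cells of wild-type C57BL/6 mice, obtained at 5 to 6 weeks of age. Mice with tumour had been inoculated in the mammary fat pad with EO771 cells, a mouse mammary cancer line. PNAd- blood endothelial cells (BECs) came from the fat pad of mice without tumour (BEC normal) or from the primary tumour (BEC tumour). PNAd+ high endothelial cells (HECs), which line the venules where lymphocytes enter lymph nodes, came from the lymph node without tumour (HEC normal) or from nodes that the labels give as metastases (HEC tumour). BECs and HECs thus came from different organs, and cell type and organ cannot be told apart. The other 6 libraries were from EO771 cells in culture. They were grown for 48 h with 12-HETE, a lipid made by the lipoxygenase ALOX12, at 100 nM, or with its vehicle, saline holding 2% DMSO. Replicates are described as independent experiments. How many mice gave each endothelial library is not given in the sources used here, and errors cover the spread between libraries.

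Totals per library ran from 56410964 to 79357993 in the endothelial table and from 17294591 to 18624179 in the EO771 table. Endothelial values rose in steps of 3.67 to 3.72, so that 1 unit was not 1 read and these totals correspond to 15246206 to 21419161 steps. All 10 general endothelial markers were detected in the 4 endothelial groups. In BECs they summed to 3338 to 3576 CPM (counts scaled by the library total) without tumour and 2375 to 2422 CPM with it, where 8 fell and 1 rose. In HECs they summed to 2473 to 2574 CPM without tumour and 2610 to 2632 CPM with it, and in HEC normal 8 were lower and 1 higher than in BEC normal. High endothelial markers summed to 4.90 to 8.09 CPM in BECs, with Glycam1 and Chst4 at 0, to 975 to 1327 CPM in HEC normal, with Madcam1 at 0, and to 2221 to 3054 CPM in HEC tumour. These HEC sums did not overlap, and 1 of the 4 markers tested rose with tumour. BEC tumour stood apart in the markers of other cells: the 6 myeloid markers summed to 1486 to 1996 CPM, against 108 to 128 CPM in BEC normal and 355 to 509 CPM in HECs. Cd68 alone averaged 889 CPM in BEC tumour, 109 CPM in BEC normal, 488 CPM in HEC normal and 360 CPM in HEC tumour. Adgre1 and Fcgr3 were at 0 in HEC tumour. All 6 myeloid markers rose in BEC tumour against BEC normal. Skeletal muscle markers summed to 11.6 to 20.6 CPM in BEC tumour and to at most 1.01 CPM in the other endothelial groups, and fibroblast and pericyte markers to 224 to 233 CPM in BEC normal, 38.5 to 71.2 CPM in BEC tumour and at most 23.7 CPM in HECs. T cell markers summed to 22.2 to 40.9 CPM in BEC tumour and at most 0.163 CPM elsewhere. Cd4 alone averaged 32.2 CPM in BEC tumour, and only 1 of the 6 T cell markers passed the filter on low values. Epithelial markers summed to 14.3 to 84.3 CPM in BEC tumour, 3.61 to 6.92 CPM in BEC normal and 27.9 to 34.1 CPM in HECs. Krt19 alone averaged 27.3 CPM in HEC normal and 31.2 CPM in HEC tumour. The share of mitochondrially encoded transcripts was 2.32% to 3.01% in BECs without tumour and 2.06% to 2.42% with it, and 2.23% to 2.44% in HECs without tumour and 2.85% to 3.09% with it, the HEC groups not overlapping. The part of these markers and shares in the values below was not tested. In these bulk libraries, fewer cells of a type and less RNA per cell cannot be told apart.

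Ogdh, Idh2 and Mdh2 were the 3 genes of the list that passed as higher with tumour in BECs and as lower with tumour in HECs, and the 250 bases before their RefSeq start (GRCm38.p6) are shown for that reason. Over all genes tested, 26.5% passed as higher with tumour in BECs and 18.5% as lower with tumour in HECs. The share of all genes that did both was not counted. In GRCm38, Ogdh (ENSMUSG00000020456) lies on chromosome 11 (6291633 to 6356642, plus strand), Idh2 (ENSMUSG00000030541) on chromosome 7 (80094846 to 80115392, minus strand) and Mdh2 (ENSMUSG00000019179) on chromosome 5 (135778480 to 135790398, plus strand). Of the 6 starts listed for Ogdh, the one nearest the annotated gene start was used. These windows run into the annotated genes, that of Mdh2 ending 169 bases past its annotated start, that of Idh2 42 bases and that of Ogdh 26 bases. Each line reads 5′ to 3′ on the gene's strand, and capitals mark TCTCGCGAGA, the only palindrome of 10 bases present at least 3 times in any window of the list, a search added after the sequences had been seen.
Ogdh, chr11:6291409-6291658: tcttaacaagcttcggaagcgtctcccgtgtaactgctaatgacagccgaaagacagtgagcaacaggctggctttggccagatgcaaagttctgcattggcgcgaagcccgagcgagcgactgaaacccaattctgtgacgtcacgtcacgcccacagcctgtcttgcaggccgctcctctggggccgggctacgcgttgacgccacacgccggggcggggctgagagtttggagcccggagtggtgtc
Idh2, chr7:80115351-80115600: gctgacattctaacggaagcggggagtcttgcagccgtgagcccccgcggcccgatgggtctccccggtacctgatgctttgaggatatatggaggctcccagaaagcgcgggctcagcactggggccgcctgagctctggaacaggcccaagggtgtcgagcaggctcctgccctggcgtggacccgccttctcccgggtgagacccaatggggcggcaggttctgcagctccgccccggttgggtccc
Mdh2, chr5:135778399-135778648: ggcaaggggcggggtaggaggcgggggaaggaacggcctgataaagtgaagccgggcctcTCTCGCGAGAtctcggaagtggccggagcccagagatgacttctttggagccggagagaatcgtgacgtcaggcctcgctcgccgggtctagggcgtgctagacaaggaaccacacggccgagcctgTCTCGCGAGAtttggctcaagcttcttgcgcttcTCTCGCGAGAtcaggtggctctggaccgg
The palindrome stood 3 times in the window of Mdh2 and in none of the other 7 genes of the list with a RefSeq window (Idh3a had no entry). Its copies began 190, 63 and 29 bases before the RefSeq start, those at 63 and 29 bases inside the annotated gene. Of 32851 listed mouse promoters, 0.390% held it in the same length. Letters of 4 other motifs, each searched on both strands, were in none of the 8 windows: GCATGCGC (2.26% of all promoters), CCGGAAG (6.91%), AAGGTCA (4.08%) and CACGTG (6.02%). The window of Sucla2 lay 27467 bases from its annotated gene start, so that the search did not cover that start. A match describes letters only.

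Ogdh encodes the E1 component of the 2-oxoglutarate dehydrogenase complex, the step that commits 2-oxoglutarate to oxidation. Its normalised counts (DESeq2 values scaled for library size) were 22375, 22716 and 23153 in BEC normal and 33500, 34783 and 34151 in BEC tumour. HECs had 13738, 14549 and 14838 without tumour and 9411, 8827 and 8820 with it. No group overlapped another, and the order was BEC tumour, BEC normal, HEC normal, HEC tumour. With tumour, Ogdh rose in BECs by a log2 fold change of 0.59 ± 0.05 (SE) and fell in HECs by 0.67 ± 0.05 on the log2 scale. The difference between HEC tumour and BEC tumour was −73.6%.

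Dld encodes the E3 component, a dihydrolipoamide dehydrogenase that this complex shares with the pyruvate and branched-chain 2-oxoacid dehydrogenases. Dld (ENSMUSG00000020664) is on chromosome 12 (31331277 to 31351453, minus strand). BECs had counts of 7263, 6579 and 7109 without tumour and 8328, 7792 and 7852 with it. HECs had 10827, 9715 and 9677 without tumour and 11237, 10680 and 10795 with it. Both HEC groups lay above both BEC groups, the reverse of Ogdh. The difference between HECs and BECs was 0.53 ± 0.07 without and 0.45 ± 0.07 with tumour (log2). Dld rose by 0.19 ± 0.07 with tumour in BECs, which did not pass without BEC normal replicate 2 (0.14, adjusted p = 0.0738 in DESeq2). In HECs the change was 0.11 ± 0.07, and it passed with the replicate number as a block or without HEC normal replicate 1.

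Taken within each library, the ratio of Ogdh to Dld per exon length does not depend on how libraries were scaled. Exon length is that of all annotated exons of a gene joined. The size of a ratio depends on that length, and its relative differences between groups do not. In BECs it was 2.08, 2.33 and 2.20 without tumour and 2.72, 3.01 and 2.94 with it, and in HECs 0.857, 1.01 and 1.04 without tumour and 0.565, 0.558 and 0.551 with it. Components of 1 complex thus stood at a mean transcript ratio of 2.89 ± 0.15 in BEC tumour and 0.558 ± 0.0069 in HEC tumour (SD, n = 3 each). The 4 groups did not overlap.

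Dlst, the E2 component that carries the lipoyl arm (ENSMUSG00000004789, chromosome 12, 85110833 to 85134845, plus strand), could not be read in the same way. BECs had counts of 7736, 8064 and 18479 without tumour and 10577, 8379 and 7850 with it. HECs had 15247, 5355 and 5406 without tumour and 5645, 14740 and 6144 with it. In 3 groups a single library stood apart, BEC normal replicate 3, HEC normal replicate 1 and HEC tumour replicate 2, at over 1.8 times the next one while the other 2 were within 1.2 times of each other. Of 8960 genes with a mean of at least 1000, 0.413% showed this in 3 or more groups. None of the other 8 genes of the list did so in any group. No Dlst comparison passed in the endothelium, and the 95% intervals were wide, from −1.08 to 1.05 for HEC tumour against BEC tumour (log2). With 1 library at a time left out, that difference ran from −0.60 to 0.23. The exons of Dlst, like those of the other 8 genes, overlapped no other annotated gene.

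Mammalian mitochondria hold separate isocitrate dehydrogenases: the NAD-dependent enzyme of the cycle, whose catalytic subunit is Idh3a, and the NADP-dependent Idh2, a source of mitochondrial NADPH. Idh2 counts in BECs were 9004, 10794 and 10386 without tumour and 13238, 13721 and 14425 with it. In HECs they were 14911, 14922 and 15612 without tumour and 9564, 9600 and 9786 with it. Idh2 was thus high in BEC tumour and HEC normal and low in the other groups. It rose with tumour in BECs (0.46 ± 0.07) and fell in HECs (−0.65 ± 0.07). HECs were above BECs without tumour (0.59 ± 0.07) and below them with tumour (−0.52 ± 0.07).

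Idh3a (ENSMUSG00000032279, chromosome 9, 54586334 to 54604661, plus strand) moved the other way. Its counts in BECs were 10773, 10520 and 9798 without tumour and 9207, 8752 and 9341 with it. In HECs they were 7719, 7249 and 7373 without tumour and 9163, 9362 and 9811 with it. It rose with tumour in HECs (0.34 ± 0.06) and fell in BECs (−0.19 ± 0.06), the latter not passing when the fit held the BEC libraries alone (−0.15, adjusted p = 0.0828 in DESeq2). HECs were below BECs without tumour (−0.48 ± 0.06), and with tumour the difference was 0.05, with a 95% interval from −0.06 to 0.17. The Idh2 to Idh3a ratio per exon length averaged 1.91 ± 0.24 in BECs without tumour and 2.97 ± 0.14 with it, and 3.99 ± 0.19 in HECs without tumour and 2.00 ± 0.046 with it (SD, 3 libraries each). It was thus higher with tumour in BECs and lower with tumour in HECs, with no overlap within either cell type.

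Mdh2 oxidises malate to oxaloacetate and closes the cycle. It was the most abundant of the 9 per exon length in all 6 groups. Counts of BECs were 39865, 44436 and 45310 without tumour and 57627, 60687 and 63457 with it. Those of HECs were 54943, 55543 and 55231 without tumour and 42270, 42551 and 41869 with it. The pattern was that of Idh2, a rise with tumour in BECs (0.49 ± 0.06) and a fall in HECs (−0.39 ± 0.06), with HECs above BECs without tumour (0.35 ± 0.06) and below them with tumour (−0.52 ± 0.06).

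Cs (ENSMUSG00000005683, chromosome 10, 128337734 to 128362479, plus strand) and Fh1 (ENSMUSG00000026526, chromosome 1, 175600374 to 175625635, minus strand) were lower in HECs than in BECs. Cs counts of BECs were 38087, 39661 and 40734 without tumour and 37159, 37984 and 38878 with it. Those of HECs were 29357, 28821 and 29644 without tumour and 24551, 24988 and 24937 with it. All HEC libraries lay below all BEC libraries, and those of HEC tumour below those of HEC normal. Cs was lower in HECs by 0.43 ± 0.04 without and 0.61 ± 0.04 with tumour, and fell by 0.24 ± 0.04 with tumour in HECs (log2). In BECs the change was −0.06 ± 0.04 and did not pass, though it did with 1 library left out (smallest adjusted p = 0.0415 in DESeq2). Fh1, which hydrates fumarate to malate, ranged from 7796 to 10033 in BECs without tumour and 8102 to 8788 with it, and from 6238 to 6855 in HECs without tumour and 6134 to 6376 with it. It was lower in HECs by 0.42 ± 0.09 without and 0.43 ± 0.09 with tumour. Its changes with tumour did not pass, at −0.08 ± 0.09 in BECs and −0.09 ± 0.09 in HECs.

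Sucla2, the ATP-forming subunit of succinyl-CoA ligase (ENSMUSG00000022110, chromosome 14, 73525319 to 73596142, plus strand), stayed between 3985 and 4849 in all 12 endothelial libraries. None of its comparisons passed, and the differences were −0.09 (95% interval −0.23 to 0.06) for HEC normal against BEC normal, −0.03 (−0.17 to 0.12) for HEC tumour against BEC tumour, −0.04 (−0.18 to 0.11) with tumour in HECs and −0.10 (−0.24 to 0.05) with tumour in BECs, in log2. The groups overlapped in each of these 4 comparisons. With 1 library left out, the change with tumour in BECs did pass (smallest adjusted p = 0.0368 in DESeq2).

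**Figure D1:**
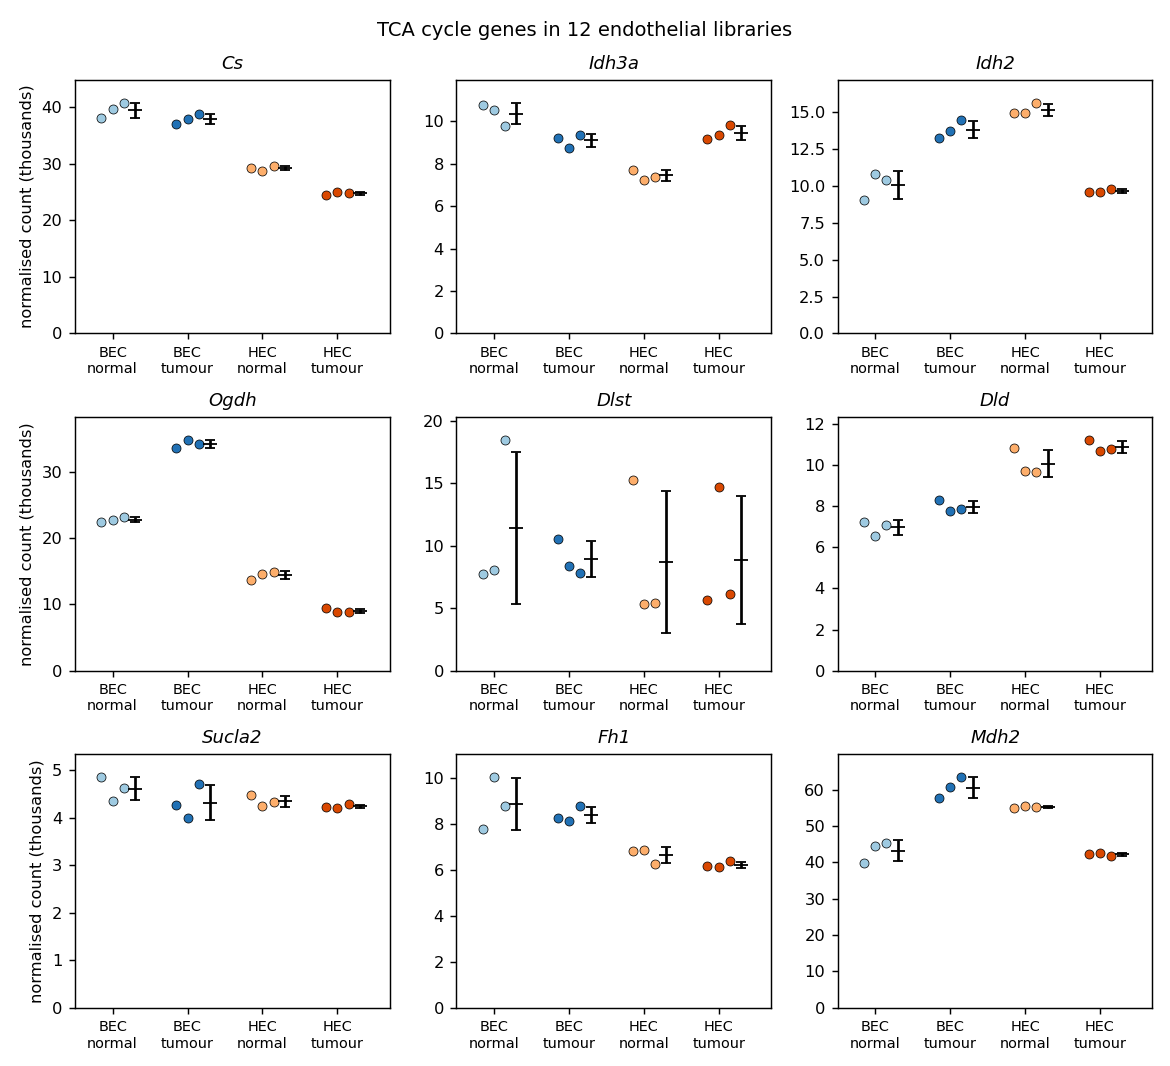
Normalised counts divided by 1000 (vertical axes from 0) of the 9 genes in the 12 endothelial libraries; points are libraries in replicate order, and bars beside them the mean ± SD (n = 3). Ogdh, Idh2 and Mdh2 are higher with tumour in BECs and lower with tumour in HECs, and Dlst has a library far above its group in BEC normal, HEC normal and HEC tumour.

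Counted over the list, HEC normal against BEC normal had 3 of the 9 genes higher (Idh2, Dld, Mdh2) and 4 lower (Cs, Idh3a, Ogdh, Fh1). Of all 18511 genes tested, 31.4% passed higher and 31.9% lower in this comparison. The libraries of these 7 genes did not overlap between the groups, as for 32.7% of all genes upwards and 34.0% downwards. None changed by over 2-fold, which 17.1% of all genes did upwards and 15.1% downwards. HEC tumour against BEC tumour had 1 higher (Dld) and 5 lower (Cs, Idh2, Ogdh, Fh1, Mdh2), beside 25.9% and 28.4% of all genes. These 6 genes had groups that did not overlap, as 30.9% of all genes had upwards and 31.8% downwards. Ogdh alone changed by over 2-fold, as 10.7% of all genes did downwards and 11.2% upwards. The median log2 fold change of the 9 genes was −0.40 without and −0.43 with tumour, and that of all genes 0.00 and 0.01. The −0.40 was the value of Dlst itself, which ran from −1.08 to 0.12 with 1 library left out. That median thus rests on a gene whose change could not be read. These comparisons share no library with each other, but each shares a group with those that follow.

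With tumour, HECs had 1 gene higher (Idh3a) and 4 lower (Cs, Idh2, Ogdh, Mdh2), beside 16.9% and 18.5% of all genes. BECs had 4 higher (Idh2, Ogdh, Dld, Mdh2) and 1 lower (Idh3a), beside 26.5% and 27.2%. All genes that passed had groups that did not overlap, which in HECs 24.7% of all genes had upwards and 24.1% downwards, and in BECs 29.1% and 30.4%. Medians of the 9 genes were −0.09 in HECs and −0.06 in BECs, against 0.02 and 0.01 over all genes. None of these changes exceeded 2-fold, which 4.58% of all genes did upwards and 3.21% downwards in HECs, and 12.4% and 10.8% in BECs.

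The interaction subtracts the tumour change of BECs from that of HECs and tests whether the responses differed. It was negative for Ogdh (−1.26 ± 0.07), Idh2 (−1.11 ± 0.10), Mdh2 (−0.88 ± 0.08) and Cs (−0.18 ± 0.05), positive for Idh3a (0.53 ± 0.08), and did not pass for the other 4. Of all genes, 22.9% passed higher and 23.7% lower. Ogdh and Idh2 were also over 2-fold, as 12.1% of all genes were in the lower direction and 11.1% in the higher. The 95% intervals ran from −0.26 to 0.10 for Dld, −0.27 to 0.24 for Fh1, −0.15 to 0.26 for Sucla2 and −1.13 to 1.90 for Dlst.

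**Figure D2:**
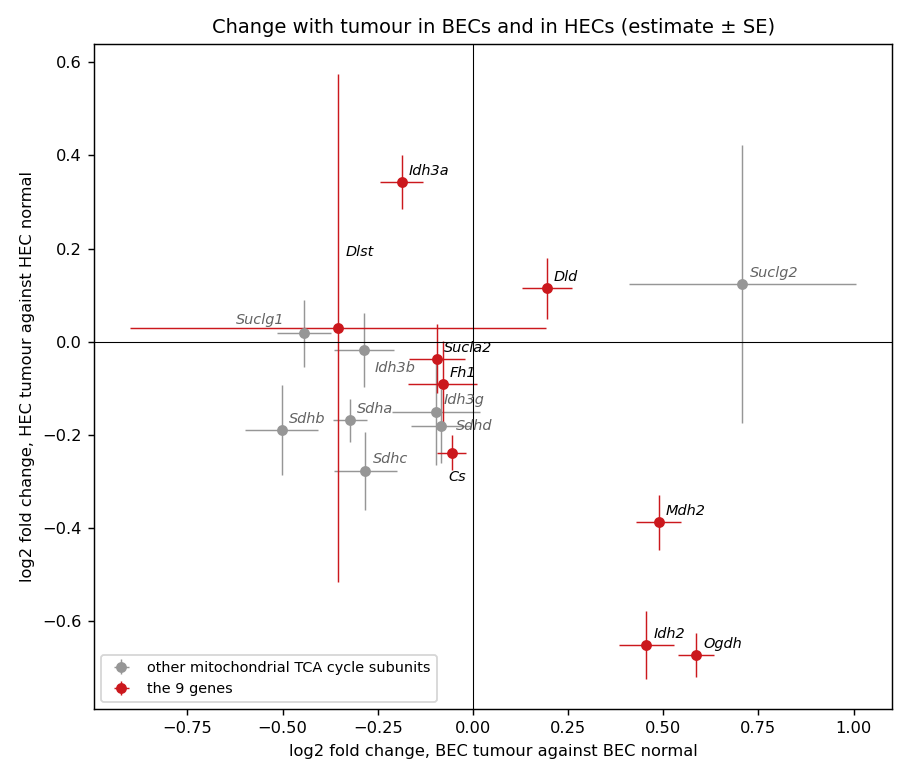
Log2 fold change with tumour in BECs (horizontal) and HECs (vertical), estimate ± SE, for the 9 genes (red) and 8 further mitochondrial TCA cycle subunits (grey). Ogdh, Idh2 and Mdh2 sit at the lower right, higher with tumour in BECs and lower in HECs, and Idh3a at the upper left; the axes share no library.

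A further 8 subunits of the mitochondrial cycle were not named by the list: the other NAD-dependent isocitrate dehydrogenase subunits (Idh3b, Idh3g), the other succinyl-CoA ligase subunits (Suclg1, Suclg2) and the 4 succinate dehydrogenase subunits (Sdha, Sdhb, Sdhc, Sdhd). In HEC normal against BEC normal, 7 of these 8 were lower and none higher, beside 31.9% and 31.4% of all genes. Sdhc (−0.81 ± 0.08, adjusted p = 1.38e-21), Suclg1 (−0.75 ± 0.07, adjusted p = 8.50e-25) and Sdha (−0.72 ± 0.05, adjusted p = 2.81e-53) differed most, and Suclg2 (0.29 ± 0.30) did not pass. With tumour, 6 were lower in HECs than in BECs, beside 28.4% of all genes, and Idh3b (−0.03 ± 0.08) and Suclg2 (−0.29 ± 0.30) did not pass. Sdhb (−0.25, adjusted p = 0.0198) did not pass without BEC tumour replicate 3 or without HEC tumour replicate 2 or 3 (largest adjusted p = 0.118, −0.18). The medians of the 8 were −0.52 without and −0.34 with tumour.

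With tumour in BECs, 5 of these 8 subunits fell, beside 27.2% of all genes, where Ogdh, Idh2 and Mdh2 rose. Sdhb fell by 0.50 ± 0.10 (adjusted p = 7.87e-07), Suclg1 by 0.44 ± 0.07 (adjusted p = 2.74e-09) and Sdha by 0.32 ± 0.05 (adjusted p = 1.16e-11), and Sdhc (−0.28 ± 0.08) did not pass when the BEC libraries were fitted alone. Only Suclg2 rose (0.71 ± 0.30, adjusted p = 0.0347), a call lost without any 1 of 5 libraries, with the largest adjusted p (0.151) without BEC normal replicate 2, and in edgeR (0.0717) and limma voom (0.0522). Its counts varied within groups in BEC normal (3526 to 5825), HEC normal (3868 to 8152) and HEC tumour (3693 to 7314). With tumour in HECs, 2 fell and none rose, beside 18.5% and 16.9% of all genes. These were Sdhc, by 0.28 ± 0.08 (adjusted p = 0.00384), and Sdha, by 0.17 ± 0.05 (adjusted p = 0.00132). With TMM scaling or with the HEC libraries fitted alone, 4 fell. Exons of Idh3b overlap those of Nop56, on the other strand, by 5 bases. Whether reads were counted by strand is not given in the sources used here, so that Idh3b values may hold reads of Nop56. The same holds for Pdha1 (603 bases of Map3k15), Pck2 (53 bases of Gm10876), Mdh1 (52 bases of Wdpcp) and Me1 (30 bases of A330041J22Rik), named below.

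In the interaction, 4 of the 8 subunits were higher and none lower, beside 22.9% and 23.7% of all genes. Suclg1 was the highest (0.46 ± 0.10, adjusted p = 2.39e-05). Sdhb (0.31 ± 0.14), Idh3b (0.27 ± 0.11) and Sdha (0.15 ± 0.07) passed narrowly, with adjusted p-values between 0.0384 and 0.0478. None of these 3 passed in edgeR, where the adjusted p-values were 0.124, 0.128 and 0.248, and each was lost when any of most single libraries was left out, with the largest adjusted p at 0.135 (without HEC normal replicate 1), 0.113 (without HEC normal replicate 2) and 0.131 (without HEC tumour replicate 3). The opposite responses of BECs and HECs seen for Ogdh, Idh2 and Mdh2 were in none of these 8 subunits, and the share of all genes with such responses was not counted.

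**Figure D3:**
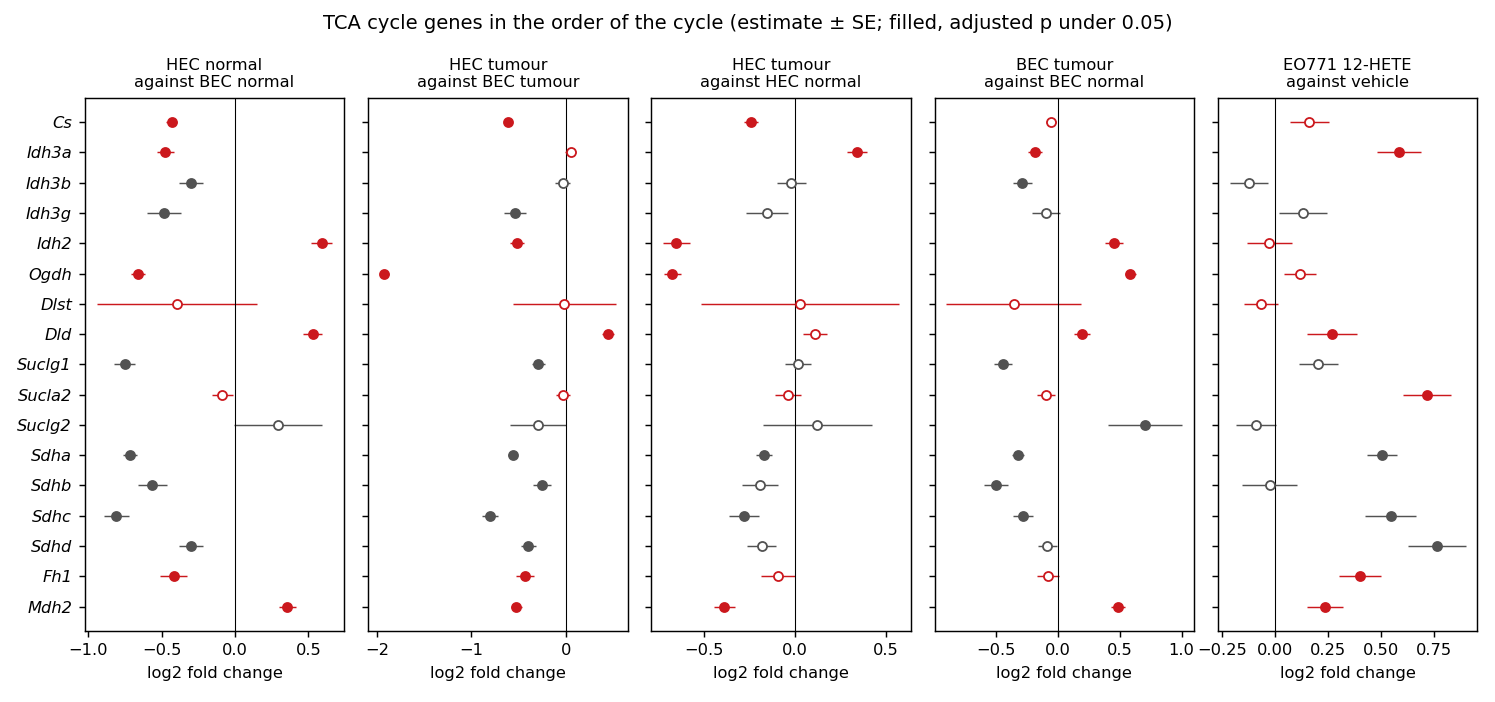
Log2 fold changes (horizontal axes, estimate ± SE) in 5 comparisons of the 9 genes (red) and 8 further mitochondrial subunits (grey), in the order of the cycle; filled points passed at an adjusted p under 0.05. In BEC tumour against BEC normal Idh2, Ogdh, Dld and Mdh2 lie right of 0 among subunits that mostly lie left of it.

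Of 18 enzymes and carriers that feed or drain the cycle, 8 were higher and 4 lower with tumour in BECs, beside 26.5% and 27.2% of all genes. In HECs 2 were higher and 6 lower, beside 16.9% and 18.5% of all genes. Pcx, Pck2 and Slc25a1 passed as higher in BECs and lower in HECs, as Ogdh did, and Me1 and Me2 in the opposite directions; Slc25a1 was named after its values were seen. The rise of Pck2 in BECs (0.32 ± 0.13, adjusted p = 0.0294) did not pass with the BEC libraries fitted alone (adjusted p = 0.0548 in DESeq2), nor without BEC normal replicate 1 or 3 or BEC tumour replicate 1 or 2, with the largest adjusted p (0.0907) without BEC tumour replicate 2. Me1, the cytosolic malic enzyme, fell in BECs (−0.42 ± 0.05, adjusted p = 3.61e-16) and rose in HECs (0.18 ± 0.05, adjusted p = 0.00163). Me2, a mitochondrial malic enzyme, fell in BECs (−0.46 ± 0.08, adjusted p = 5.38e-08) and rose in HECs (0.31 ± 0.08, adjusted p = 0.000592). Pcx, the pyruvate carboxylase that makes oxaloacetate, rose with tumour in BECs (1.04 ± 0.10, adjusted p = 1.19e-25) and fell in HECs (−0.69 ± 0.10, adjusted p = 1.39e-10), an interaction of −1.73 ± 0.14. Its counts were 1840 to 2306 in BECs without tumour and 4120 to 4339 with it, and 1346 to 1539 in HECs without tumour and 874 to 947 with it. Cytosolic Idh1, the NADP-dependent counterpart of Idh2, rose in BECs (0.90 ± 0.14, adjusted p = 1.10e-09) and fell in HECs (−1.05 ± 0.14, adjusted p = 4.04e-12), with an interaction of −1.94 ± 0.20. Mdh1, the cytosolic malate dehydrogenase, differed in the interaction by −0.53 ± 0.15 (adjusted p = 0.00125). Ogdhl, a paralog of Ogdh, fell in HECs (−0.55 ± 0.11, adjusted p = 1.23e-05) and was −0.09 ± 0.11 in BECs, at counts of 645 to 1262.

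Pyruvate reaches the cycle through the pyruvate dehydrogenase complex, of which Dld is also the E3. Of its 4 other subunits, 2 rose in BECs with tumour and none fell, beside 26.5% and 27.2% of all genes. These were Pdhb (0.26 ± 0.06, adjusted p = 0.000102) and Pdha1 (0.23 ± 0.06, adjusted p = 0.000217). In HECs Pdhb fell (−0.26 ± 0.06, adjusted p = 0.000132) and Pdhx, the E3-binding protein, rose (0.50 ± 0.07, adjusted p = 4.20e-10). Over all genes 18.5% passed as lower and 16.9% as higher in that comparison. Of 7 regulators of the complex, 2 rose and 2 fell in BECs with tumour, beside 26.5% and 27.2% of all genes. In HECs 1 rose and 2 fell. Among the kinases that shut the complex down, Pdk4 fell in BECs with tumour (−2.18 ± 0.16, adjusted p = 1.44e-43), from counts of 2191 to 2878 to counts of 500 to 587. Pdp2 and Pdpr, of the opposing phosphatase, had counts of 564 to 698 and 594 to 658 in BEC normal. In BEC tumour these were 1054 to 1282 and 1107 to 1391. In HECs with tumour Pdk1 rose (0.64 ± 0.10, adjusted p = 2.37e-09) and Pdk3 fell (−0.46 ± 0.07, adjusted p = 1.73e-09), and in BECs neither passed (0.14 ± 0.10 and 0.14 ± 0.07). Pdk2 fell in BECs (−0.66 ± 0.22, adjusted p = 0.00550) and in HECs (−0.71 ± 0.22, adjusted p = 0.00561), the latter not passing without HEC normal replicate 2 (−0.51, adjusted p = 0.0556 in DESeq2).

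Of 6 regulators of mitochondrial biogenesis, 2 rose and none fell with tumour in BECs, beside 26.5% and 27.2% of all genes. In HECs 1 rose and 3 fell, beside 16.9% and 18.5% of all genes. The co-activators Ppargc1b and Ppargc1a were the 2 that rose in BECs, and both fell in HECs. Ppargc1b had counts of 116 to 133 in BECs without tumour and 337 to 362 with it, and of 253 to 320 in HECs without tumour and 110 to 157 with it, an interaction of −2.54 ± 0.27 (adjusted p = 4.64e-20). Ppargc1a was low, between 11.2 and 167, with an interaction of −3.32 ± 0.52 (adjusted p = 1.13e-09). In contrast, of 11 general mitochondrial genes 8 fell and none rose in BECs with tumour, beside 27.2% and 26.5% of all genes. Among those that fell was the chaperone Hspa9 (−0.58 ± 0.04, adjusted p = 1.61e-41). In the interaction 8 were higher and 1 lower, beside 22.9% and 23.7% of all genes.

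In EO771 cells given 12-HETE, 5 of the 9 genes were higher than with vehicle (Idh3a, Sucla2, Fh1, Mdh2, Dld) and none lower, where 22.7% of 11602 genes tested passed higher and 24.2% lower. This fit did not pair the libraries, and Dld did not pass with the replicate number as a block. None changed by over 2-fold, as 2.38% of all genes did upwards and 7.79% downwards. The median of the 9 was 0.24 and that of all genes 0.00. Sucla2 counts were 681, 640 and 785 with vehicle and 1135, 1182 and 1148 with 12-HETE (0.72 ± 0.11), a gene that passed in no endothelial comparison with all libraries in the fit. Idh3a counts were 1408, 1351 and 1616 with vehicle and 2195, 2144 and 2228 with 12-HETE (0.59 ± 0.10). For both genes every treated library was above every vehicle library, and vehicle replicate 3 was the highest of its group.

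Fh1 counts were 2016, 1685 and 1855 with vehicle and 2473, 2452 and 2409 with 12-HETE (0.40 ± 0.10). Mdh2 counts were 12926, 12371 and 11516 with vehicle and 14312, 15123 and 13913 with 12-HETE (0.24 ± 0.09). The groups did not overlap, but Mdh2 did not pass when any of the 12-HETE libraries was left out (largest adjusted p = 0.158, without 12-HETE replicate 2). Dld counts were 1576, 1506 and 1908 with vehicle and 1953, 1994 and 2068 with 12-HETE (0.27 ± 0.12, adjusted p = 0.0487 in DESeq2). That call was lost with the replicate number as a block (0.28, adjusted p = 0.0545), in edgeR (adjusted p = 0.0647) and in limma voom (adjusted p = 0.0553), and without any single library other than vehicle replicate 3, with the largest adjusted p (0.209) without vehicle replicate 1.

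The remaining 4 genes did not pass. Ogdh counts were 4458, 4461 and 4302 with vehicle and 4967, 4719 and 4655 with 12-HETE (0.12, 95% interval −0.03 to 0.27), and Cs counts 14480, 12369 and 12956 against 15164, 14633 and 14729 (0.16, −0.02 to 0.34). Libraries of the groups did not overlap for either gene, and with the 5 above this made 7 of the 9, where 30.2% of all genes lay higher with 12-HETE without overlap and 30.5% lower. Idh2 (−0.03, −0.23 to 0.18) and Dlst (−0.07, −0.23 to 0.09) overlapped. Dlst ranged from 6075 to 6846 over the 6 libraries, with no library apart.

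**Figure D4:**
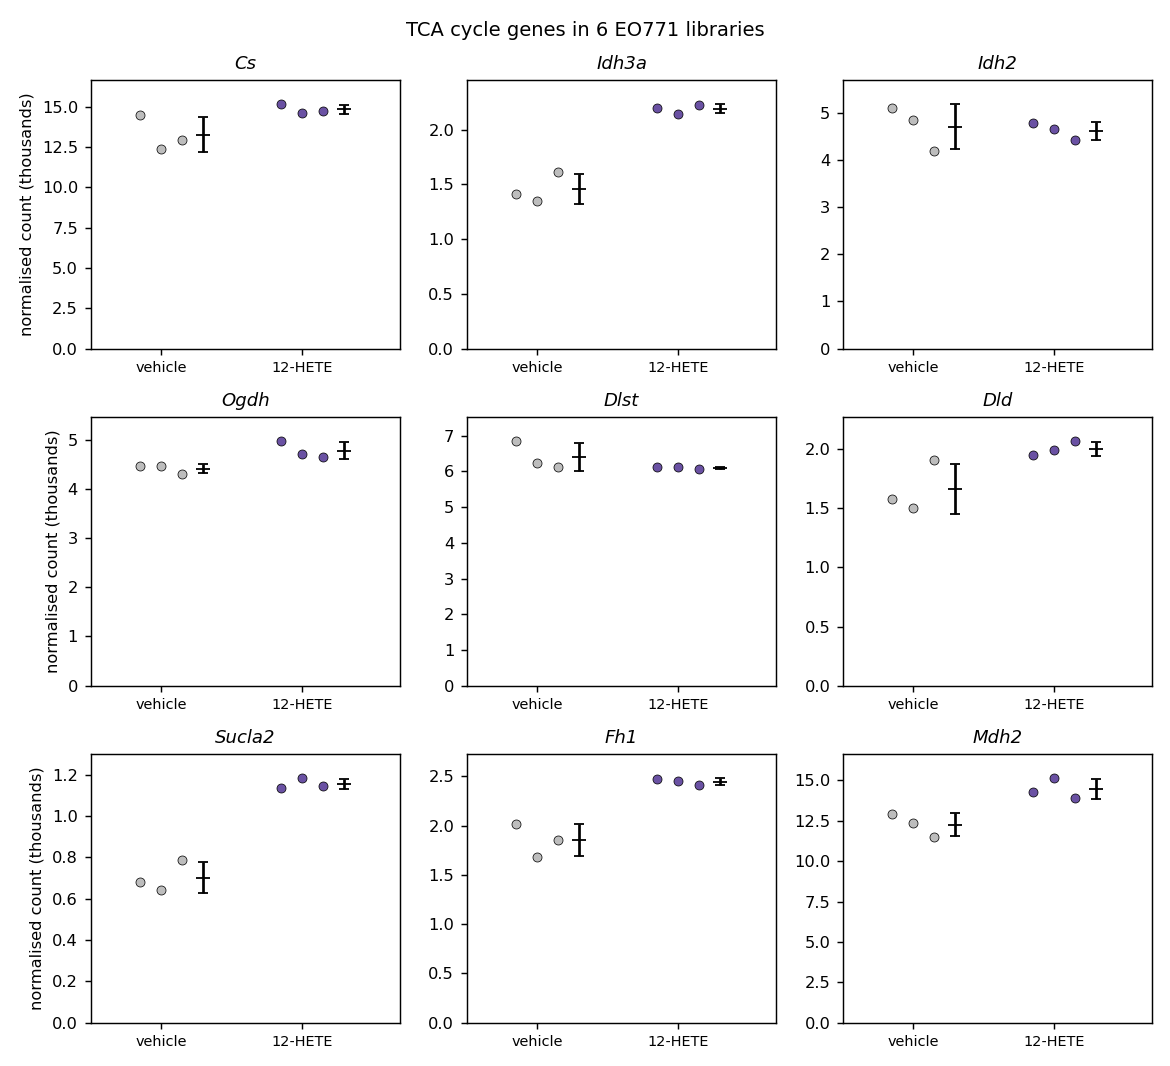
Normalised counts divided by 1000 (vertical axes from 0) of the 9 genes in the 6 EO771 libraries; points are libraries in replicate order, and bars the mean ± SD (n = 3). Relative to their level Sucla2 and Idh3a change most (log2 0.72 and 0.59), and Idh2 and Dlst overlap.

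Of the 8 further mitochondrial subunits, 3 rose with 12-HETE and none fell, all of succinate dehydrogenase: Sdhd (0.76 ± 0.14, adjusted p = 2.52e-07), Sdhc (0.55 ± 0.12, adjusted p = 4.26e-05) and Sdha (0.51 ± 0.07, adjusted p = 2.82e-11). The fourth subunit, Sdhb, was −0.03 ± 0.13. Over all genes tested, 22.7% passed higher and 24.2% lower. Among the other enzymes, Idh1 rose (1.04 ± 0.11, adjusted p = 1.48e-20), from 1096 to 1245 with vehicle to 2248 to 2635 with 12-HETE. Mdh1 (0.62 ± 0.09, adjusted p = 1.75e-10), the citrate lyase Acly (0.66 ± 0.10, adjusted p = 2.99e-09) and the aspartate-glutamate carrier Slc25a12 (0.81 ± 0.12, adjusted p = 6.66e-10) rose too. Pck2, the mitochondrial enzyme that turns oxaloacetate into phosphoenolpyruvate, fell (−1.12 ± 0.15, adjusted p = 2.17e-13). Of the pyruvate dehydrogenase subunits, Pdha1 (0.40 ± 0.08, adjusted p = 5.50e-06) and Dlat (0.43 ± 0.17, adjusted p = 0.0274) rose, Dlat not in edgeR (adjusted p = 0.0563) nor without any 1 of the 12-HETE libraries (largest adjusted p = 0.110, without replicate 1).

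The balance of isoenzymes in EO771 cells is given by ratios within each library, whose size again depends on the exon length used. The Idh2 to Idh3a ratio per exon length was 7.11, 7.03 and 5.08 with vehicle and 4.27, 4.27 and 3.89 with 12-HETE, with vehicle replicate 3 the lowest of its group. Succinyl-CoA ligase pairs Suclg1 either with the ATP-forming Sucla2 or with the GTP-forming Suclg2. The Suclg2 to Sucla2 ratio was 1.84 ± 0.12 with vehicle and 1.05 ± 0.03 with 12-HETE (SD, n = 3 each), and in the endothelium it ran from 0.697 to 1.57.

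**Figure D5:**
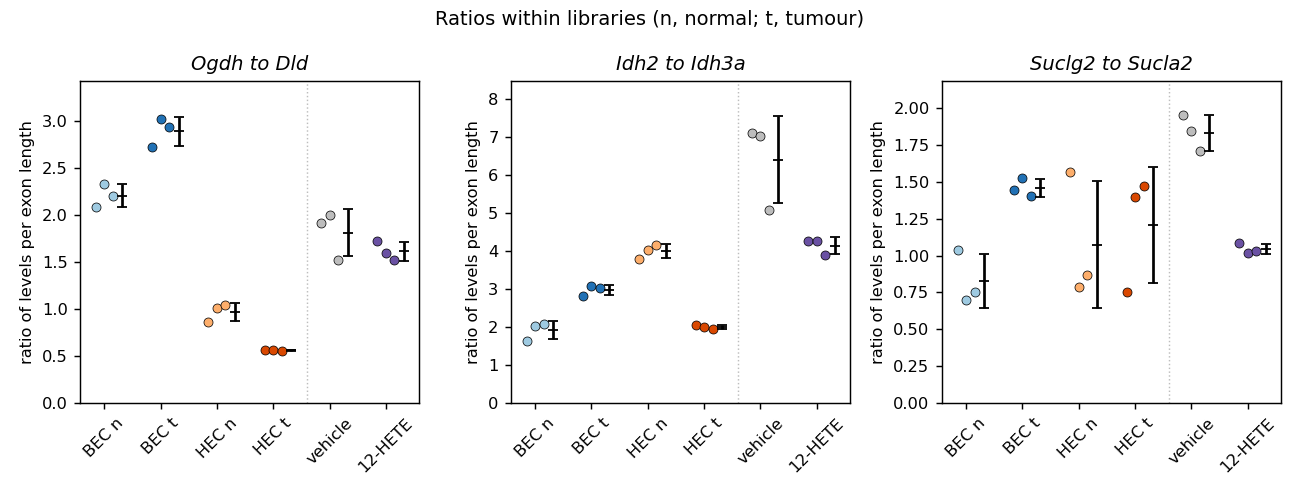
Ratios of levels per exon length within each library (vertical axes from 0) for 3 pairs of transcripts; points are libraries and bars the mean ± SD (n = 3), with the EO771 table right of the dotted line. Ogdh to Dld falls from BEC tumour (mean 2.89) to HEC tumour (mean 0.558), and Suclg2 to Sucla2 is lower with 12-HETE (mean 1.05) than with vehicle (mean 1.84).

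Base composition moved with the 12-HETE comparison. Of the genes tested in the endothelium 77.9% had a GC value, too few for this check, which was void there. Of the 11602 genes tested 98.5% had a protein-coding transcript in the annotation, and the median log2 fold change was 0.29 in the 3811 genes of lowest GC content (up to 47.0%) and −0.21 in the 3810 genes of highest (from 53.4%). The longest transcripts of Dld (40.6%), Sucla2 (43.2%) and Idh3a (46.9%) were among the former, and those of Idh2 and Mdh2 (55.4% each) among the latter. Set against the median of all genes within 1 percentage point of GC content, Idh3a was higher by 0.45, Sucla2 by 0.44, Mdh2 by 0.41 and Fh1 by 0.29, Sdhd by 0.75, Sdhc by 0.50 and Sdha by 0.43 (log2). Dld was lower by this measure (−0.14), and Idh2 (0.15) and Dlst (0.03) were no longer negative. The share of mitochondrially encoded transcripts was 0.718% to 0.816% with vehicle and 2.24% to 2.45% with 12-HETE. Epithelial markers summed to 3051 to 3977 CPM with vehicle and 2042 to 2092 CPM with 12-HETE, and fibroblast and pericyte markers to 390 to 614 CPM and 998 to 1037 CPM. Nearly all of the latter was Dcn, which averaged 510 CPM with vehicle and 1008 CPM with 12-HETE, and only 2 of these 7 genes were tested. The part of base composition, of the mitochondrially encoded share and of these markers in the changes was not tested.

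Per exon length, the order in BEC normal was Mdh2 (12129 ± 821 normalised counts per kb, SD, n = 3), Cs (6834 ± 230), Ogdh (4169 ± 71.5), Idh2 (3888 ± 363), Fh1 (2614 ± 331), Idh3a (2043 ± 99.8), Dld (1896 ± 97.4), Dlst (1195 ± 639) and Sucla2 (1157 ± 60.9). Ogdh and Idh2 lay within their spread, as did Idh3a and Dld, Dld and Dlst, and Dlst and Sucla2. In HEC tumour the order was Mdh2 (11856 ± 96.2), Cs (4296 ± 41.4), Idh2 (3729 ± 46.0), Dld (2961 ± 79.8), Idh3a (1862 ± 65.5), Fh1 (1836 ± 38.1), Ogdh (1653 ± 62.2), Sucla2 (1063 ± 10.05) and Dlst (925 ± 535). By this length Ogdh had passed from the third place to the seventh and Dld from the seventh to the fourth. Idh3a and Fh1 lay within their spread, as did Sucla2 and Dlst. In EO771 cells with vehicle, Mdh2 (3445 ± 199), Cs (2296 ± 189) and Idh2 (1821 ± 183) led, followed by Ogdh (808 ± 16.7), Dlst (669 ± 40.9), Fh1 (546 ± 48.8), Dld (452 ± 58.3), Idh3a (288 ± 27.5) and Sucla2 (176 ± 18.7), Fh1 and Dld lying within their spread. Levels of the endothelial and EO771 tables were scaled separately and are not set against each other. The places depend on the length used, which for Dlst was 9559 bases of joined exons against 2764 bases in its longest coding transcript. Places by transcript length were not taken.

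Across the 12 endothelial libraries, the genes whose log2 values followed the mean of the 9 standardised genes most closely were Melk (r = 0.949), Tcaf2 (r = 0.948) and Nelfcd (r = 0.942). Across the 6 EO771 libraries they were Knstrn (r = 0.999), 1810030O07Rik (r = 0.996) and Copz1 (r = 0.996). These r values are Pearson's, given as a description; the libraries share their groups and scaling.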

How the data were processed

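The authors aligned reads to GRCm38 with STAR and counted them per gene with featureCounts, as their methods state. The values the authors deposited for the 12 endothelial libraries are whole numbers in steps and were used as estimated counts, although plain counts had been planned for. The values the authors deposited for the 6 EO771 libraries are raw counts. Library kits are named differently in methods and labels. The methods give a directional kit for EO771, and whether reads were counted by strand is not given in the sources used here. Genes with a mean of at least 10 were tested. DESeq2 1.42.0 (R 4.3.3) gave two-sided Wald tests with Benjamini-Hochberg adjustment in 1 fit per table, with group as the only term. Alternatives were edgeR 4.0.16, limma voom 3.58.1, TMM scaling, no filter, a replicate block, single libraries left out, a log2 fold change of 1 as the null, values divided by their step, no mitochondrially encoded genes and only the groups compared. The comparison with genes of like GC content was added after the data were seen. The fits were tested on simulated data.

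The 9 genes and the lists were chosen with earlier results of these data known. Named were the 9 genes, 8 further mitochondrial subunits (another is not reported here), pyruvate dehydrogenase subunits and paralogs, for other lists the 2 genes of lowest adjusted p in each direction, and the 3 most like genes. In EO771, same-numbered libraries deviated together (r of deviations from the group means 0.159 to 0.461), so the numbers were taken to pair them, a reading from the data alone. The EO771 values given are from the fit without this pairing. With the replicate block Dld did not pass (0.28, adjusted p = 0.0545 in DESeq2). In the endothelium r ran from −0.10 to 0.28, and the numbers were not taken to pair libraries. Intervals (95%) cover the spread between libraries and counting error.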

Additional observations from a re-analysis of the deposited data

Results flagged for a closer look

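Results below differed between BECs and HECs in their change with tumour by the interaction test in DESeq2 (log2 change in HECs less that in BECs), and no explanation was weighed. Among the 9 genes these were Ogdh (−1.26), Idh2 (−1.11), Mdh2 (−0.88), Cs (−0.18) and Idh3a (0.53). Among other subunits they were Suclg1 (0.46), Sdhb (0.31), Idh3b (0.27) and Sdha (0.15), the last 3 not in edgeR. Among enzymes and regulators around the cycle they were Idh1 (−1.94), Mdh1 (−0.53), Ogdhl (−0.46), Pdha1 (−0.21), Pdhb (−0.52), Pdhx (0.48), Pdk1 (0.51), Pdk4 (2.06), Pcx (−1.73), Ppargc1a (−3.32), Ppargc1b (−2.54) and Hspa9 (0.62). Pdha1 did not pass without any 1 of 5 libraries, BEC normal replicate 2 or 3, HEC normal replicate 1 or 3 or HEC tumour replicate 2, at adjusted p from 0.0564 to 0.0925. BEC tumour also differed from the other groups in its myeloid and muscle transcripts, whose part was not tested.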

How the results depend on the processing

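Against a log2 fold change of 1, the counts of the 9 genes past the test fell to 0 higher and 0 lower between normal HECs and BECs and with tumour in either cell type, 0 higher and 1 lower (Ogdh) in HEC tumour against BEC tumour and in the interaction, and 0 in EO771. With the replicate block, HEC tumour against HEC normal had 2 higher, EO771 lost Dld, the interaction lost Idh3b (adjusted p = 0.0576 in DESeq2), and no other call of a named gene changed. With only the groups compared, BEC tumour against BEC normal had 0 lower. Leaving out 1 library gave 1 to 2 higher in HEC tumour against HEC normal (2 without HEC normal replicate 1), 1 to 2 lower in BEC tumour against BEC normal (2 without BEC normal replicate 1 or BEC tumour replicate 3) and 3 to 5 higher in EO771 (3 without any 12-HETE library). Signs turned only where no test passed, apart from Dld. For Dlst in HEC tumour against BEC tumour the value was 0.00514 with the block and 0.000615 with values divided by their step. For Suclg1 in HEC tumour against HEC normal it was −0.00616 in edgeR, −0.00597 with TMM scaling and −0.00317 in voom. In the interaction, Sucla2 was −0.00214 in edgeR and −0.00169 with TMM, and Sdhc −0.0547 in edgeR, −0.0549 with TMM, −0.0581 in voom and −0.00498 with no filter. Less the median of genes of like GC content, Idh2 was 0.148, Dlst 0.027, Dld −0.136 and Sdhb 0.144 in EO771. Leaving out 1 library, Dlst ran from −1.08 to 0.12 (HEC normal against BEC normal), −0.60 to 0.23 (HEC tumour against BEC tumour), −0.56 to 0.71 (HECs with tumour), −0.57 to 0.17 (BECs with tumour) and −0.20 to 1.07 (interaction). Fh1 ran from −0.17 to 0.0083 (BECs) and −0.10 to 0.078 (interaction), Sucla2 from −0.084 to 0.035 (HEC tumour against BEC tumour), Idh2 from −0.11 to 0.029 and Sdhb from −0.099 to 0.076 (both EO771). Idh3b ran from −0.077 to 0.034 (HEC tumour against BEC tumour) and −0.050 to 0.037 (HECs), Idh3g from −0.22 to 0.0034 (BECs) and −0.15 to 0.069 (interaction), Sdhc from −0.053 to 0.081 (interaction), Suclg1 from −0.019 to 0.069 (HECs), and Suclg2 from −0.11 to 0.52 (HEC normal against BEC normal) and −0.076 to 0.53 (HECs). The causes were not tested. Steps in the endothelial values limit how small a difference their counts resolve, and 3 libraries a group limit all of them.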
